A study of Homo sapiens with 4 samples.

Results

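The genes compared here encode the proteins that prepare origins of DNA replication, unwind the double helix and copy it at the fork. They were taken from the deposited table by name, from a list of 51 genes, and all 51 were found, each in 1 row, among 60671 rows. Of the 51, 47 had a mean of at least 1 TPM over the 4 libraries and were tested with the other expressed genes. MCM8, ORC5, CDC7 and POLA1 lay below that mean and are given by their values alone. The values were read as TPM, a scale that corrects reads for transcript length and sets all libraries to a common total. How they were made is not given in the sources used here. Folds between different genes are therefore folds of the deposited values and may differ from folds of RNA.

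RNA with a poly(A) tail was sequenced from H9, an established line of human embryonic stem cells, grown in mTeSR medium. There were 2 control libraries and 2 libraries of cells labelled CFIm25 KO+ 3Flag-CFIm25 overexpression, called KO+OE here. The controls are labelled control H9, which does not say whether these cells had received an empty vector. CFIm25, encoded by NUDT21, is a subunit of a cleavage factor that acts at the 3′ ends of new mRNAs. The KO+OE cells carried an edited CFIm25 gene, which the series title calls KD, and a lentiviral 3Flag-tagged CFIm25 driven by an EF1 promoter. The paper describes the edited clones as knockdowns in which CFIm25 with a small N-terminal deletion remained. KO is thus the wording of the label and does not mean that the protein was absent. According to the study the edited cells were selected on puromycin and expanded from single-cell clones. Re-expression was done in 1 of these clones, so KO+OE stands for a single clone. Effects of edit, clone, transgene and selection cannot be told apart in any difference from control. Nothing in the labels says that replicates were separate cultures, so the p-values measure only the spread between these libraries, which may be technical. Cells with the edit alone were not analysed here.

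The level of the edited gene and markers of cell identity were read first. NUDT21 was 161 and 152 TPM in the control libraries and 162 and 157 TPM in the KO+OE libraries, a log2 fold change of 0.03 with a 95% interval of -0.09 to 0.14 and an adjusted p of 0.980 from limma. Whether reads of the transgene count towards it is not given in the sources used here. The level of NUDT21 therefore checks neither the edit nor the re-expression. The 9 pluripotency markers examined, POU5F1 and LIN28A among them, summed to between 3303 and 3338 TPM in every library. POU5F1 alone gave 2164 to 2212 TPM of this sum, and the lowest marker of each library was 15.85 to 17.53 TPM. Of 15 markers of other cell types, 12 were under 1 TPM in each library and PTPRC, LUM and SOX17 were at 0 in all 4. The exceptions were COL1A1 (53.9 to 55.6 TPM), COL1A2 and GATA6. The summed level of the 15 was 76.0 and 77.1 TPM in control and 74.6 and 75.1 TPM in KO+OE. The total of each library in the table was between 986853 and 987078 TPM. The table holds no read counts, so depth is unknown and precision rests on the replicates.

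As background, an origin is marked by the origin recognition complex (ORC), onto which CDC6 and CDT1 load the ring-shaped MCM2-7 helicase while cells are in G1. In S phase the kinase CDC7 with its activator DBF4 helps to switch the ring on, and CDC45 and the GINS complex bind it to form the running helicase. Polymerase alpha with primase then starts each strand, polymerases epsilon and delta extend it on the PCNA clamp that RFC loads, and RPA covers the single strands. Many of these genes are known targets of the E2F transcription factors, which drive the entry into S phase. Pluripotent stem cells are known for short G1 phases and for a large part of the population being in S phase.

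The members spanned a wide range of levels, and their summed level was close in all 4 libraries. Their means ran from 0.520 TPM for MCM8, a helicase of recombination, to 240 TPM for MCM7, a 461-fold range. The 6 highest, MCM7, POLD2, CDT1, MCM3, MCM5 and POLD1, held 48.8% of the summed level of the list. A mean of 10 TPM or more was reached by 31 members, or 60.8%, against 44.9% of all genes tested. The first share is of all 51, with the members too low to be tested counted in. All 51 together took 1883 and 1889 TPM in control and 1902 and 1864 TPM in KO+OE, which is 0.189% to 0.193% of each library. The control mean of this sum was 1886 ± 4.54 TPM and the KO+OE mean 1883 ± 26.9 TPM (SD, n = 2 each). These are bulk samples, so fewer cells in S phase and less RNA per cell cannot be told apart.

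**Figure D1:**
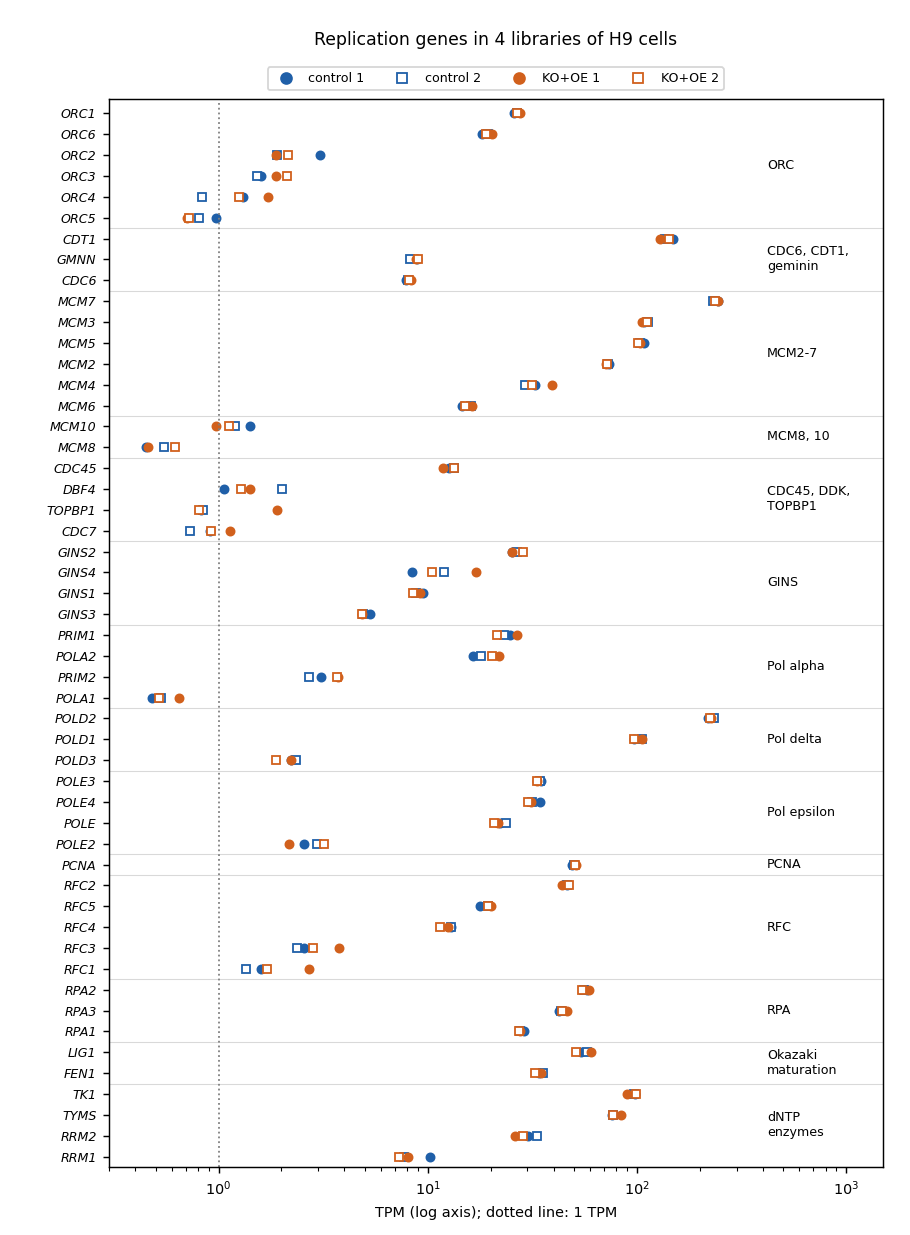
Level of each of the 51 genes in TPM (log axis) in the 2 control libraries (blue) and the 2 KO+OE libraries (orange), sorted by mean within role groups. TOPBP1, ORC4, GINS4 and RFC1 spread over 2-fold or more between their lowest and highest library.

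The promoters of the list were read next, since shared control is what these genes are best known for. RefSeq promoter windows on GRCh38.p14 were found for 45 of the 51 members, and the 250 bases before each listed start were searched on both strands. For 11 of the 45 more than 1 start was listed, which made 59 windows, and a gene counted as holding a motif if any of its windows did, for members and all other genes alike. A start can therefore lie inside the gene, as in GMNN. The E2F motif was searched as TTTCCCGC, TTTGGCGC, TTTCGCGC and TTTGCCGC. It stood in the windows of 16 of the 45 members, or 35.6%, against 5.73% of 8533 protein-coding genes that were tested and had a window, and 4.6% of all 15842 protein-coding genes with one. Among 32 further replication genes with a window, 4 held the motif (12.5%), and among 8 E2F and DP genes 4 did (50%). The motif CCAAT was held by 26 members (57.8%, against 41.6% of protein-coding genes tested), and GGGCGG, the GC box, by 35 (77.8% against 77.5%). Of 21 E2F matches, 3 shared bases with a GC box. These shares are descriptions of letters and were not tested.

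The following stretches show where the motif lies in members of different roles, with the matching letters in capitals and up to 20 bases on each side, 5′ to 3′ on the strand of the gene. MCM3 and MCM6 are helicase subunits, CDT1 a loading factor, GINS2 a helicase partner, POLA2, POLE and POLE4 polymerase subunits, RFC3 a clamp loader subunit and PCNA the clamp. In MCM6 the 4 matches form 2 pairs in which TTTGGCGC and the reverse complement of TTTCGCGC share bases.
MCM3, chr6:52284889-52284936, minus strand: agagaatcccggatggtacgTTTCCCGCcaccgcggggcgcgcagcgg
MCM6, chr2:135876502-135876615, minus strand: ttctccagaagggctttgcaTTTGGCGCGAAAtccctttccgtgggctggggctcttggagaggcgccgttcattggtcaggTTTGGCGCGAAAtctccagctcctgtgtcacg
CDT1, chr16:88803734-88803781, plus strand: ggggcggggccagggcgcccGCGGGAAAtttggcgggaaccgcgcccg
GINS2, chr16:85688958-85689005, minus strand: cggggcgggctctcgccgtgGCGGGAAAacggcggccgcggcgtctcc
POLA2, chr11:65261889-65261936, plus strand: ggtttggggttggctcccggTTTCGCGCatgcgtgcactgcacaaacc
POLE, chr12:132687343-132687380, minus strand: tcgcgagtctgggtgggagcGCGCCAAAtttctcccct
POLE4, chr2:74958592-74958639, plus strand: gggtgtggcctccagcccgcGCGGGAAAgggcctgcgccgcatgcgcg
RFC3, chr13:33818074-33818121, plus strand: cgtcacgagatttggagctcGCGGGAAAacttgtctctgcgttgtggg
PCNA, chr20:5126654-5126701, minus strand: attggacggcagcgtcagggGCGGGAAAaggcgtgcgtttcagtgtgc

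The nearest matches to the gene start were in MCM7, with 1 match 9 bases before it and another 187 bases before it, and in ORC3, 12 bases before it. The 16 members with the motif had a median level of 24.3 TPM, and the 29 without it 12.5 TPM. MCM2, ORC1, CDC6 and CDC45 were among the 29, so no match in this window was found for them. The 14 tested members with the motif had log2 fold changes from -0.10 to 0.30 between KO+OE and control, with a median of 0.03. The 27 tested members without it ran from -0.21 to 0.35, with a median of -0.04.

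The ORC genes formed 2 levels. ORC1, the subunit whose amount follows the cell cycle, was 26.0 and 26.8 TPM in control and 27.6 and 26.6 TPM in KO+OE. ORC6, the smallest subunit, was 18.2 and 19.3 TPM in control and 20.3 and 18.9 TPM in KO+OE. The other 4 lay far below, with ORC2 at 3.04 and 1.90 TPM in control and 1.89 and 2.15 TPM in KO+OE. ORC3 was 1.60 and 1.53 TPM in control and 1.89 and 2.13 TPM in KO+OE. ORC4 ranged from 0.830 to 1.73 TPM and ORC5 from 0.710 to 0.970 TPM. The step from ORC6 to ORC2 was 8.54-fold and no library of one reached the range of the other. ORC2 overlapped with ORC3, ORC3 with ORC4 and ORC4 with ORC5, so these neighbours did not differ beyond their spread. No library reversed the order of the 6 means, with ORC2 and ORC3 tied in KO+OE replicate 1.

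Of the loading factors, CDT1 stood out by level. It was 148 and 136 TPM in control and 129 and 143 TPM in KO+OE. Geminin (GMNN), which binds CDT1 and keeps origins from being loaded again, was 8.93 and 8.22 TPM in control and 8.75 and 8.95 TPM in KO+OE. CDC6, the ATPase that loads the helicase together with ORC, was 7.86 and 8.05 TPM in control and 8.36 and 8.10 TPM in KO+OE. The ratio of CDT1 to geminin RNA was thus 16.6 in both control libraries and 14.8 and 16.0 in KO+OE. Neither KO+OE library reached the control value, and the exact permutation test gave p = 0.333, the smallest that 2 against 2 libraries allow.

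The 6 genes of the MCM2-7 ring, whose proteins are present in equal numbers in the assembled helicase, had unequal deposited values. MCM7 led with 244 and 232 TPM in control and 244 and 238 TPM in KO+OE. MCM3 followed at 108 and 113 TPM in control and 106 and 112 TPM in KO+OE, and MCM5 lay between 101 and 108 TPM. MCM3 and MCM5 overlapped, and all other neighbours in the order were separate in all libraries. MCM2 was 73.7 and 73.1 TPM in control and 71.2 and 71.9 TPM in KO+OE. MCM4 was 32.7 and 29.2 TPM in control and 39.3 and 31.6 TPM in KO+OE, with KO+OE replicate 1 the highest. MCM6 was the lowest of the ring, at 14.6 and 16.2 TPM in control and 16.2 and 15.1 TPM in KO+OE. The ratio of MCM7 to MCM6 was 16.7 and 14.4 in control and 15 and 15.7 in KO+OE. The ring genes summed to a control mean of 574 ± 10.1 TPM and a KO+OE mean of 575 ± 7.62 TPM (SD, n = 2 each).

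Of the factors that activate the helicase, CDC7, DBF4, TOPBP1 and MCM10 had means under 2 TPM, whereas CDC45 lay between 11.8 and 13.4 TPM. CDC7, the kinase, was 0.910 and 0.730 TPM in control and 1.13 and 0.920 TPM in KO+OE. Its activator DBF4 was 1.06 and 2.01 TPM in control and 1.42 and 1.28 TPM in KO+OE, so the control replicates stood farther apart than the groups. TOPBP1, a scaffold needed for loading CDC45 and GINS, was 0.820 and 0.840 TPM in control and 1.91 and 0.810 TPM in KO+OE. Only KO+OE replicate 1 was high, and the other 3 libraries lay between 0.810 and 0.840 TPM. MCM10, which helps the helicase to open the origin, was 1.41 and 1.20 TPM in control and 0.970 and 1.12 TPM in KO+OE.

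Within GINS, a complex of 4 small subunits, GINS2 was highest at 25.2 to 28.4 TPM and GINS3 lowest at 4.84 to 5.29 TPM. GINS1 lay between 8.5 and 9.45 TPM. GINS4 was 8.40 and 11.96 TPM in control and 17.05 and 10.44 TPM in KO+OE. It overlapped with GINS1, and its place in the complex was the only point where the order of subunits changed between libraries among the 8 complexes examined. The ratio of GINS4 to GINS2 was 0.333 and 0.448 in control and 0.671 and 0.367 in KO+OE.

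The polymerases each combined high and low subunits. For polymerase alpha and primase, PRIM1, the subunit that makes the RNA primer, was 24.9 and 23.2 TPM in control and 26.7 and 21.5 TPM in KO+OE. POLA2, the accessory subunit of polymerase alpha, was 16.47 and 18.03 TPM in control and 21.99 and 20.42 TPM in KO+OE. PRIM2 was 3.09 and 2.72 TPM in control and 3.73 and 3.68 TPM in KO+OE. For both of these accessory subunits the KO+OE libraries lay above the control libraries without overlap. POLA1, the catalytic subunit, was lowest with 0.480 to 0.650 TPM.

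In polymerase delta the contrast was the widest of the complexes. POLD2 was 218 and 233 TPM in control and 227 and 224 TPM in KO+OE, and the catalytic subunit POLD1 lay between 97.1 and 106 TPM. POLD3, the subunit that tethers the enzyme to PCNA, was 2.23 and 2.34 TPM in control and 2.22 and 1.88 TPM in KO+OE. POLD1 thus stood 46.8-fold above POLD3. In polymerase epsilon, POLE3 and POLE4, a pair of histone-fold subunits, overlapped at 33.3 to 34.9 and 30.2 to 34.6 TPM, and the catalytic POLE was 22.2 and 23.7 TPM in control and 21.8 and 20.8 TPM in KO+OE. POLE2 was 8.14-fold below POLE, at 2.17 to 3.19 TPM.

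At the fork, PCNA was 49.1 and 50.1 TPM in control and 50.9 in both KO+OE libraries, which made it one of the steadiest members. Of its loader, RFC2 was 44.1 to 47.2 TPM, RFC5 17.70 to 20.01 TPM and RFC4 11.44 to 12.98 TPM, with no overlap among these. RFC3 was 2.55 and 2.37 TPM in control and 3.76 and 2.82 TPM in KO+OE. RFC1, the large subunit, was 1.60 and 1.35 TPM in control and 2.70 and 1.70 TPM in KO+OE. Both were above the control libraries in each KO+OE library, with KO+OE replicate 1 farthest. RPA was the most even of the complexes, with RPA2 at 54.8 to 58.8, RPA3 at 42.6 to 46.4 and RPA1 at 27.4 to 28.9 TPM.

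The enzymes of lagging strand maturation, the nuclease FEN1 and the ligase LIG1, lay at 32.8 to 35.8 and 51.5 to 60.1 TPM. Of the enzymes that make nucleotides, thymidine kinase TK1 was 90.2 to 99.6 TPM and thymidylate synthase TYMS 75.9 to 84.3 TPM. RRM2, the S phase subunit of ribonucleotide reductase, was 30.3 and 33.3 TPM in control and 26.3 and 28.5 TPM in KO+OE, so both KO+OE libraries lay below both control libraries. RRM1, the large subunit, was 10.2 and 7.71 TPM in control and 8.04 and 7.33 TPM in KO+OE. The ratio of RRM2 to RRM1 ran from 2.96 to 4.31 in control and from 3.27 to 3.89 in KO+OE, with the latter inside the former.

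Subunit balance was then compared between the groups over the 33 tested subunits of the 8 complexes. Each level was divided by the median of its complex in the same library, on a log2 scale, and 5 subunits that are themselves the median have a ratio and a shift of 0 by construction. Over the other 28 the shift from control to KO+OE had a median size of 0.12 on the log2 scale, against a median SD between replicates of 0.13. Over all 33, with the 5 at 0, it was 0.080, and 0.151 without control replicate 2. For 24 of the 28 the shift was under 0.5. The other 4 were ORC3, ORC4, RFC1 and RFC3, which are named here after their values were seen, and ORC4 had the largest shift, 0.75. ORC ratios are taken against ORC2, which was high in control replicate 1. No exact test of a single ratio could fall below p = 0.333. MCM4 shifted by 0.23, and PRIM1 relative to POLA2 by -0.30. POLA2 is the reference there, and the limma estimate of PRIM1 itself was -0.0043. Both genes overlap another row on their own strand, so their values are uncertain.

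**Figure D2:**
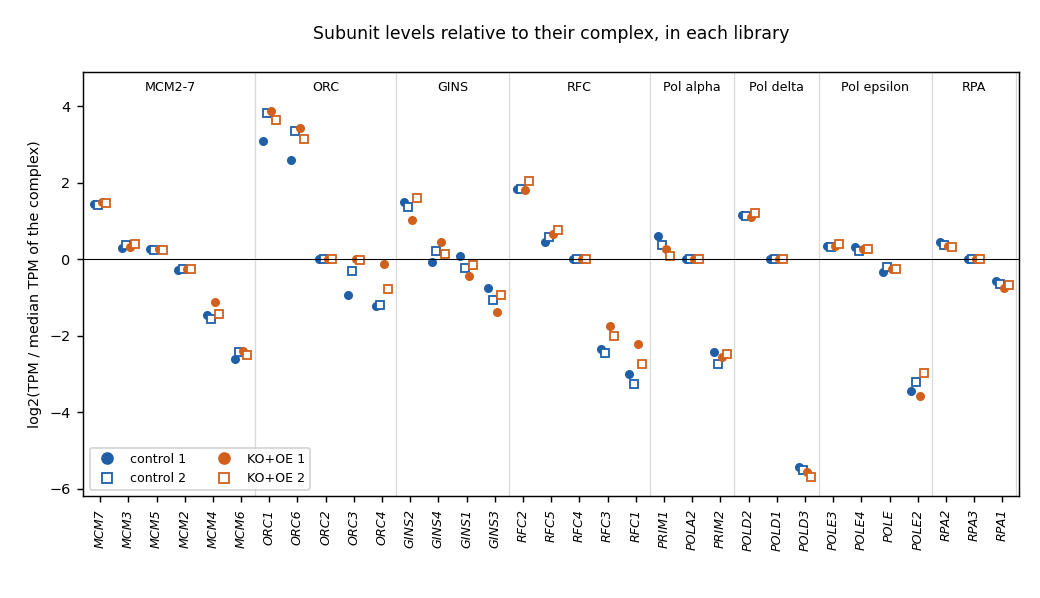
Level of each tested subunit relative to the median of its complex (log2 scale) in the 2 control libraries (blue) and the 2 KO+OE libraries (orange); ORC5 and POLA1, under 1 TPM, are left out. No library reverses the order of subunits except at GINS4. The KO+OE points lie above the control points for RFC1, RFC3, RFC5, ORC3, ORC4, MCM4, MCM7 and POLE3. They lie below them for PRIM1, POLD3, RPA1 and RPA2. These are 8 and 4 of the 33 ratios, 5 of which are 0 by construction. Each such separation has p = 0.333 in the exact permutation test, the smallest possible. The ORC ratios share the reference ORC2 and the RFC ratios share RFC4.

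The direct comparison of KO+OE with control called none of the members. With limma on log2(TPM + 1), 0 of the 47 tested members passed an adjusted p of 0.05, where 0.00812% of all 12319 genes tested did. An unadjusted p under 0.05 was reached by 2 members, or 4.26%, against 5.33% of all genes tested, so the share was near the background. The groups did not overlap with KO+OE higher for 9 members (19.1%, against 14.5% of all genes tested), and with KO+OE lower for 9 members (19.1%, against 19.6%). The estimate was above 0 for 20 members and below 0 for 27. The median log2 fold change was -0.0043 over the members and -0.012 over all genes tested. On log2(TPM + 1) the 95% interval lay within 2-fold in either direction for 45 of the 47 members, or 95.7%. The share was 92.6% of all genes tested. The other 2 members were GINS4 and TOPBP1. That scale understates fold changes of low genes, so for members of a few TPM this sets no 2-fold bound on TPM. Differences inside these intervals were not detectable with 2 libraries a group.

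The 2 members at an unadjusted p under 0.05 were POLA2 and RRM2. POLA2 (ENSG00000014138) lies on the plus strand of chromosome 11 from 65261962 to 65305985 on GRCh38, with the E2F match shown above 53 bases before its start. Its control mean was 17.3 ± 1.10 TPM and its KO+OE mean 21.2 ± 1.11 TPM (SD, n = 2 each), a log2 fold change of 0.28 with a 95% interval of 0.08 to 0.49 (unadjusted p = 0.0173, adjusted p = 0.928). Without control replicate 1 the unadjusted p was 0.0869, and without KO+OE replicate 1 it was 0.0973. A row on the same strand that spans POLA2, ENSG00000285816, was 7.01 and 6.31 TPM in control and 4.83 and 6.08 TPM in KO+OE. Reads may be divided between these rows, which makes the value of POLA2 uncertain. The sum of both was 23.5 and 24.3 TPM in control and 26.8 and 26.5 TPM in KO+OE.

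RRM2 (ENSG00000171848) lies on the plus strand of chromosome 2 from 10122568 to 10211010 on GRCh38. Its control mean was 31.8 ± 2.07 TPM and its KO+OE mean 27.4 ± 1.58 TPM (SD, n = 2 each), a log2 fold change of -0.21 with a 95% interval of -0.40 to -0.0091 (unadjusted p = 0.0433, adjusted p = 0.928). Leaving out control replicate 2 gave an unadjusted p of 0.192, KO+OE replicate 1 one of 0.187 and KO+OE replicate 2 one of 0.0579. It was 0.0501 with no filter on low values, 0.0602 with quantile normalization, 0.0594 with median-ratio rescaling and 0.0863 with no mean-dependent prior. For RRM1 (ENSG00000167325) the estimate was -0.19 (95% interval -0.58 to 0.20, adjusted p = 0.948), and it shrank to -0.0054 on leaving out control replicate 1.

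At a pseudocount of 1 the 3 highest estimates belonged to GINS4, RFC1 and TOPBP1, and in each the same library was the highest. GINS4 had a log2 fold change of 0.38 (95% interval -0.30 to 1.06), RFC1 one of 0.35 (-0.20 to 0.91) and TOPBP1 one of 0.33 (-0.39 to 1.05), with adjusted p from 0.938 to 0.948. Without KO+OE replicate 1 they were 0.05, 0.13 and -0.02. The ranking depended on the pseudocount, since at 0.1 TOPBP1 (0.54), RFC1 (0.52) and ORC4 (0.46) led and at 5 GINS4 (0.29), POLA2 (0.24) and MCM4 (0.17) did. On GRCh38, RFC1 occupies bases 39287456 to 39366362 of chromosome 4 and TOPBP1 bases 133600238 to 133661941 of chromosome 3, both read from the minus strand. The 3 lowest were RRM2, RRM1 and ORC2, and ORC2 at -0.18 (95% interval -0.73 to 0.36) was 0.06 without control replicate 1. At a pseudocount of 0.1 the lowest were MCM10 (-0.29, against -0.17 at 1), ORC2 (-0.24) and RRM2 (-0.21), and at 5 POLE4 (-0.092) took the place of ORC2 (-0.086). All 4 subunits of polymerase epsilon had estimates below 0, from -0.10 for POLE to -0.04 for POLE2, and the groups did not overlap for POLE, POLE3 and POLE4. This complex was picked out after its values were seen, and over all genes tested 54.5% of estimates were below 0 and 19.6% of genes separated with KO+OE lower. They summed to a control mean of 93.4 ± 1.08 TPM and a KO+OE mean of 88 ± 0.849 TPM (SD, n = 2 each), and none had an unadjusted p under 0.05.

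**Figure D3:**
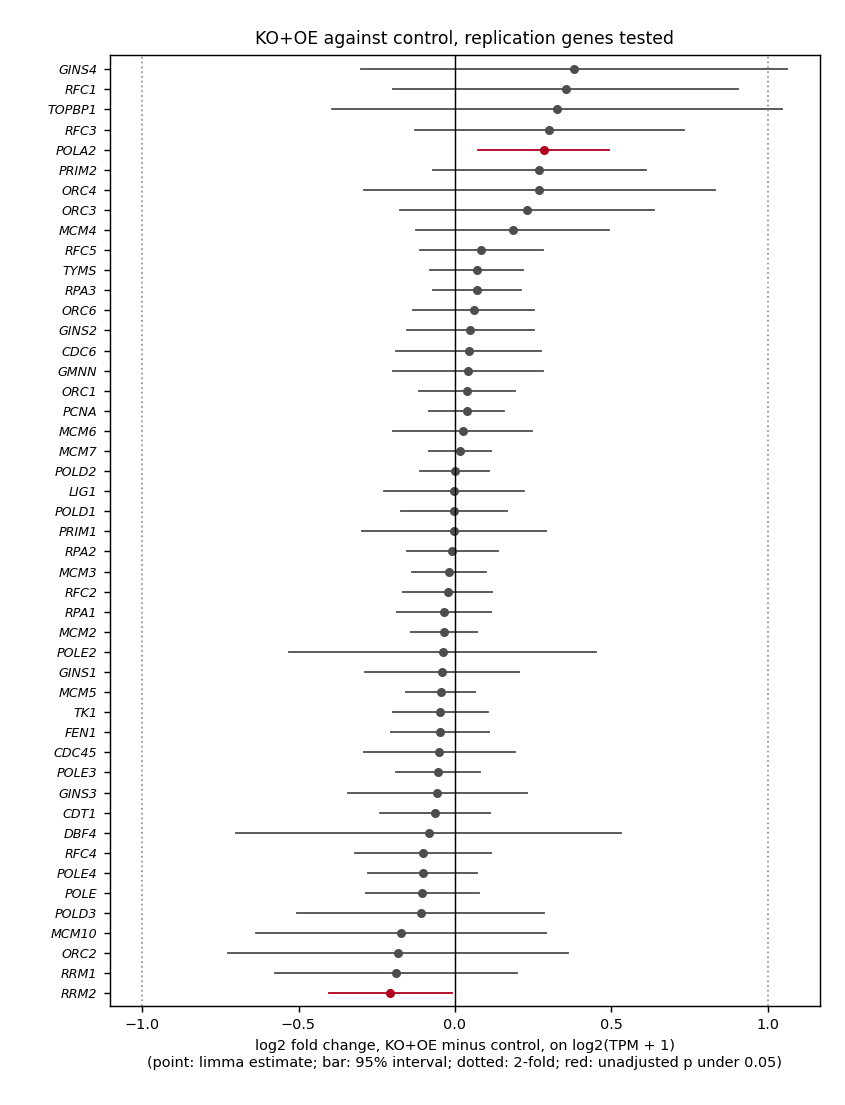
Log2 fold change of KO+OE over control for the 47 tested members (limma estimate on log2(TPM + 1)) with its 95% interval. All intervals except those of POLA2 and RRM2 (red) include 0, and only those of GINS4 and TOPBP1 reach beyond 2-fold on that scale (dotted). The scale understates fold changes of low genes.

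KO+OE replicate 1 was the highest of the 4 libraries for 21 of the 51 members, or 41.2%, against 26.2% of all genes tested. The 21 include CDC7 and POLA1, which were too low to be tested, while the second share covers tested genes only. Of the 8 members whose highest library exceeded the lowest by 1.5-fold or more, 6 were highest there: TOPBP1, ORC4, GINS4, RFC1, RFC3 and CDC7. DBF4 was highest in control replicate 2 and ORC2 in control replicate 1. Among the 21 tested members with a transcript GC content under 45%, the median difference of KO+OE replicate 1 over replicate 2 was 0.09 on the log2 scale. It was 0.03 among the 9 members at 55% GC and over. Over all genes tested the same medians were 0.05 and 0.0016. The part of GC content in these differences was not tested.

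The level of a member went with the base composition of its transcript. Across the 51 members, Spearman's rho of level with canonical-transcript GC content was 0.789 to 0.801 in the 4 libraries, and with transcript length it was -0.415 to -0.380. Over 12147 tested genes with a GC value, rho of mean level with GC content was 0.275. The points share the libraries and their preparation, and genes are not independent replicates, so no p is given. The 25 members under 45% GC had a median of 2.715 TPM, the 17 between 45% and 55% one of 31.9 TPM and the 9 at 55% and over one of 101 TPM. For all genes tested these medians were 3.655, 8.405 and 13.6 TPM. Among the members under 45% GC are MCM8, ORC5, CDC7 and POLA1, which were too low to be tested. In rho and in the lowest GC class, members and tested genes are therefore not like sets.

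Inside the complexes the pattern was mixed. Of 27 steps between neighbours in the order of level, the higher subunit had the higher GC content in 16, and of the 19 steps without overlap in 13. POLD3 had a GC content of 42.6%, against 59.4% for POLD2 and 64.8% for POLD1. ORC2, ORC3, ORC4 and ORC5 had 37.4% to 41.2%, against 50.7% for ORC1 and 45.9% for ORC6. RFC1 and RFC3 had 41.6% and 38.0%, against 52.6% for RFC2. POLE2 had 39.7%, against 56.4% for POLE. Other steps ran the opposite way, since POLE had a higher GC content than POLE3 (46.4%) and POLE4 (47.3%) at a lower level. So did POLD1 against POLD2, MCM2 against MCM5, GINS3 against GINS1 and RPA1 against RPA3. Among members under 45% GC, PCNA reached 50.2 TPM at 43.5%, RRM2 29.6 TPM at 42.1% and PRIM1 24.1 TPM at 39.6%. The part of base composition in these steps was not tested.

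**Figure D4:**
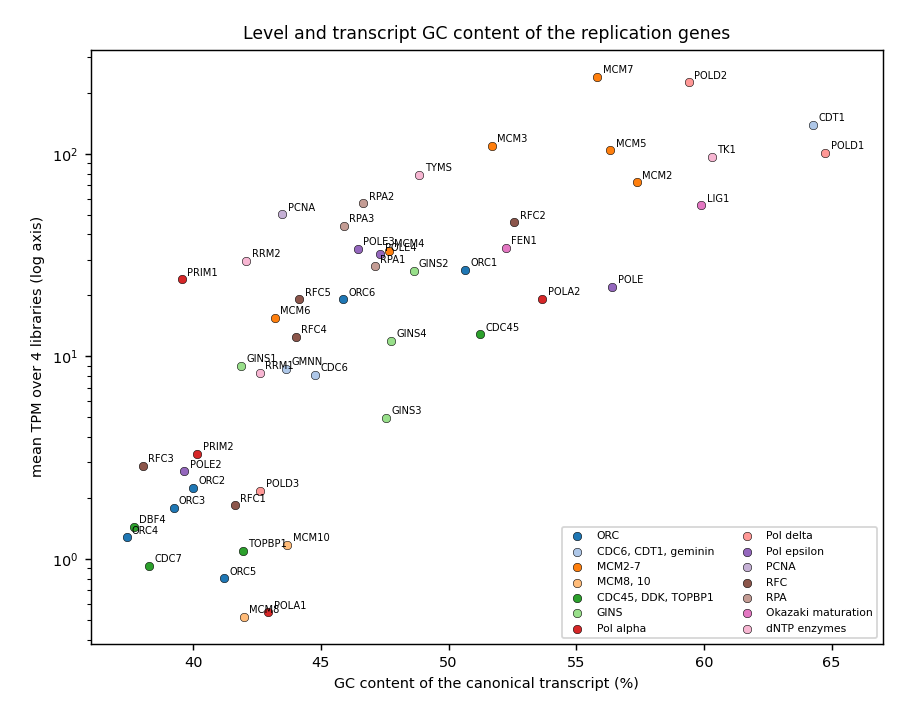
Mean TPM over the 4 libraries (log axis) of each of the 51 members against the GC content of its canonical transcript in percent, coloured by role. Members under 45% GC have a median of 2.715 TPM and those at 55% and over one of 101 TPM, with PCNA, RRM2 and PRIM1 the highest of those under 45%.

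Other genes of DNA replication were examined from a second list of 40, of which 35 were tested. With limma 0 passed an adjusted p of 0.05, and 3 had an unadjusted p under 0.05, or 8.57% against 5.33% of all genes tested. Of the estimates 11 were above and 24 below 0, or 68.6% below against 54.5% of all genes tested, with a median of -0.05. RRM2B, the p53-regulated counterpart of RRM2, was 2.89 and 2.10 TPM in control and 1.19 and 1.35 TPM in KO+OE, the lowest estimate of the list (log2 fold change -0.61, 95% interval -1.10 to -0.13, unadjusted p = 0.0219, adjusted p = 0.928). TOP2A, the topoisomerase that disentangles finished strands, was 4.81 and 4.44 TPM in control and 3.20 and 3.40 TPM in KO+OE (log2 fold change -0.39, unadjusted p = 0.0255). CHAF1A, the large subunit of a chaperone that places histones behind the fork, was 43.8 and 40.8 TPM in control and 46.9 and 49.8 TPM in KO+OE (log2 fold change 0.19, unadjusted p = 0.0292). The highest estimate was that of TIPIN, 0.23, a subunit of the fork protection complex. Of the 9 tested E2F and DP genes, limma called 0 after adjustment and 1 at an unadjusted p under 0.05, or 11.1% against 5.33% of all genes tested. This was E2F5, at 7.58 and 7.0 TPM in control and 9.26 and 9.40 TPM in KO+OE (log2 fold change 0.32, 95% interval 0.08 to 0.56, unadjusted p = 0.0194, adjusted p = 0.928), also the highest of that list. The lowest was E2F6, at -0.24. E2F1, an activator of many members, lay between 21.2 and 23.0 TPM.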

How the data were processed

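The deposited table gave 1 value per Ensembl gene and library. Its header names no unit, and the deposited values were read as TPM because they hold decimals and the 4 columns sum to nearly equal totals. The submitters' processing notes name HISAT2, featureCounts (Subread), DESeq2 and build hg38 without roles, and the step that made the TPM values is not given in the sources used here. Because TPM carries no counts, DESeq2 and other count tests were not used. Columns that matched no sample numbered 0.

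Groups and replicate numbers came from the sample titles. Members and lists were chosen with earlier results of these data known. Rows whose mean reached 1 TPM were compared on log2(TPM + 1) with limma 3.58.1 in R 4.3.3 (eBayes with a mean-dependent prior, two-sided, Benjamini-Hochberg over all genes tested), a scale that understates fold changes of low genes. The step was tested on simulated data in which only genes well above the filter were changed, by 2-fold or more. Smaller changes and changes of low genes were not simulated. Single ratios were compared with an exact permutation test over libraries. Fitted values are given for members with an unadjusted p under 0.05, for the 3 highest and 3 lowest estimates, and by the same p and the extremes for the other lists. Transcript GC content and length were computed from the canonical transcripts of GENCODE release 44 lifted to GRCh37, matched by Ensembl identifier. Gene positions and promoters are from RefSeq on GRCh38.p14, matched by symbol. Of 32 pseudogene rows named after members, 1 was above 0 in any library, at up to 0.08 TPM. For 25 members another row of the table lies on the opposite strand. On their own strand FEN1 overlaps FADS2 (271 to 281 TPM) and PRIM1 overlaps NACA (118 to 127 TPM). Both neighbours lie above the member they overlap, so the values of FEN1 and PRIM1 are uncertain. POLD1 overlaps ENSG00000142539 (1.38 to 3.12 TPM) and POLA2 overlaps ENSG00000285816, besides rows under 1 TPM. How strand was used in counting is not given in the sources used here, so reads of such pairs cannot be told apart. Python 3.11.15, pandas 2.3.3, numpy 2.4.6, scipy 1.17.1 and matplotlib 3.10.9 were used. The alternatives were other pseudocounts, filters, scalings, priors, the replicate block and leaving out each library.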

Additional observations from a re-analysis of the deposited data

How the results depend on the processing

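No member passed an adjusted p of 0.05 under any of the 12 alternatives, and over 552 refits of single members the smallest adjusted p was 0.852. The number of members with an unadjusted p under 0.05 was 2 as reported, and 1 with no filter on low values, with quantile normalization and with median-ratio rescaling, where POLA2 alone passed. It was 3 with no mean-dependent prior (ORC3, POLA2 and PRIM2). Leaving out single libraries gave 0 (KO+OE replicate 1) to 4 (KO+OE replicate 2, with MCM4, TOPBP1, RFC1 and POLA2); a group left with 1 library is assumed to vary like the other group. For the further replication genes this number was 3 as reported, 1 with a filter at a mean of 5 TPM and 0 to 3 without single libraries, with 0 on leaving out KO+OE replicate 2 and 1 on leaving out control replicate 1 or KO+OE replicate 1. For the E2F and DP genes it was 1 as reported, 2 with no filter, 2 with no mean-dependent prior and 0 to 1 without single libraries, with 0 on leaving out control replicate 2 or KO+OE replicate 1. The median log2 fold change of the members stayed between -0.0047 and 0.011. NUDT21 ran from -0.012, without control replicate 2, to 0.066. The cause of these changes was not tested.

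The labels do not say whether the numbers 1 and 2 pair the libraries. The deviations of same-numbered libraries correlated with r = -0.049 over 12319 genes. This shows no large shared effect, but cannot tell whether such libraries were prepared together. With a replicate block 2 members had an unadjusted p under 0.05, as without it, and 4 further replication genes did.

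Estimates of single members changed sign in 39 of the 552 refits, 29 of them without single libraries. PRIM1, POLD1, POLD2, RPA2 and LIG1 turned to 0.0050, 0.014, 0.0093, 0.015 and 0.0087 with quantile normalization, and to 0.0080, 0.010, 0.012, 0.0042 and 0.010 with median-ratio rescaling, settings that moved the median of all genes tested from -0.012 to 0.0010 and -0.00055. Without single libraries the log2 fold change ran from -0.055 to 0.017 for MCM3, -0.044 to 0.094 for MCM6, -0.019 to 0.052 for MCM7, -0.42 to 0.057 for ORC2, -0.14 to 0.0081 for CDT1, -0.012 to 0.095 for GMNN, -0.13 to 0.034 for CDC45, -0.36 to 0.19 for DBF4, -0.016 to 0.67 for TOPBP1 and -0.093 to 0.011 for GINS1. It ran from -0.029 to 0.13 for GINS2, -0.070 to 0.024 for RFC2, -0.15 to 0.14 for PRIM1, -0.065 to 0.059 for POLD1, -0.049 to 0.047 for POLD2, -0.24 to 0.16 for POLE2, -0.059 to 0.043 for RPA2, -0.11 to 0.11 for LIG1 and -0.12 to 0.025 for TK1. Depth is unknown, and precision is limited by 2 libraries a group.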
